A study of Mus musculus with 16 samples.

Results

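The 40 genes described here encode the kinases AMPK and mTOR and proteins that act upstream or downstream of them. They were chosen by name and read as rows of the count table of 16 mouse liver libraries, each called a liver below, where 40 of 40 symbols matched 1 row each among 55357 genes. AUG livers (n = 4) carried a mouse telomerase RNA gene (mTERC, symbol Terc) whose genotype is labelled CUG/AUG, and AUG_WT livers (n = 4) were the wild types of that group. Likewise, del7 livers (n = 4) carried mTERC lacking the 7 nucleotides at positions 29 to 35, and del7_WT livers (n = 4) were their wild types. All mice were untreated and fed ad libitum on a 12:12 light cycle. Strain, age, sex, zygosity and the time of sampling were not given in the sources used here, and CUG/AUG could name a codon change or a pair of alleles. Terc itself is not analysed here, so the genotypes were not checked in the reads.

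AMPK is a trimer of a catalytic alpha, a scaffold beta and a regulatory gamma subunit that senses falling cellular energy, and in liver it restrains fat and sterol synthesis. The kinase mTOR sits in mTORC1, which drives protein synthesis when amino acids and insulin are plentiful, and in mTORC2, which activates AKT. Insulin reaches mTORC1 through AKT, the TSC complex and Rheb, whereas amino acids act through the Rag GTPases at the lysosome, and AMPK restrains mTORC1 through TSC2 and Raptor. Much of this signalling is carried by phosphorylation, which RNA counts do not measure.

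Reads counted in genes numbered 7714058 to 14629022 per liver. AUG_WT replicate 1 stood apart from the other 15 livers: its score on the first principal component (34.5% of the variance) was 126, and no other liver exceeded 10.7. Its summed markers were 731 CPM (TMM-scaled CPM, reads per liver set to a common total) for B and plasma cells, against 33.6 to 331 CPM in the other 15, and 354 CPM for dividing cells, against 6.39 to 24.2 CPM. Its 7 hepatocyte markers summed to 42150 CPM, against 87090 to 147800 CPM, and its TMM factor was 1.36, against 0.877 to 1.04. Fold changes below that involve AUG_WT livers and moved by more than 1.5 times or changed sign without that liver are given both ways. In del7 over del7_WT, which holds no AUG_WT liver, the sign turned for 3 of 40 members without it, Prkaa2 among them. In whole tissue, fewer hepatocytes and less RNA per hepatocyte cannot be told apart. Of 5 skeletal muscle markers, 4 had at most 3 counts in every liver. AUG_WT replicate 2 also stood apart, with a score of -53 on principal component 2, against -18.8 to 26.2 in the other livers. It had the lowest TMM factor (0.877) and the highest hepatocyte marker sum (147800 CPM). It had the highest TMM-scaled CPM for 8 of 40 members, but the highest CPM from library totals for 3 and the lowest for 6. AUG_WT replicate 1 likewise had the highest TMM-scaled CPM for 8. Fits without AUG_WT replicate 1 still hold AUG_WT replicate 2. No label states that replicates were separate animals, and p-values here reflect only the variation among these libraries.

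All 40 members passed the filter on low counts and were tested. To set genes side by side, counts were divided by exon length and scaled to the same total in each liver (TPM), and the mean over 16 livers is given with its SD. Eif4ebp2, which encodes 4E-BP2, a repressor of cap-dependent translation that mTORC1 switches off, had the highest level at 185 ± 22.9 TPM. Deptor, an inhibitor that binds mTOR, followed at 91.03 ± 9.70 TPM, and Stk11, the AMPK-activating kinase LKB1, at 47.4 ± 3.95 TPM. Eif4ebp2 exceeded Deptor, and Deptor exceeded Stk11, in 16 of 16 livers. The next levels were those of Rraga (44.97 ± 8.19 TPM), Akt1 (40.04 ± 10.9 TPM) and Prkaa2 (37.8 ± 6.95 TPM), which lay within their SDs of each other. At the low end stood Strada (2.72 ± 2.12 TPM), Prkab2 (2.78 ± 1.25 TPM) and Rragd (2.87 ± 2.28 TPM), again within their spread. With the length of the longest transcript the order below Deptor differed, with Akt1 at rank 3, Stk11 at 4, Cab39 at 5, Rraga at 6 and Prkaa2 at 12. By exon length, the other 31 members ranged from 5.01 TPM (Nprl3) to 34.8 TPM (Rragc). TPM is not TMM-scaled, and AUG_WT replicate 1 had the highest TPM for 27 of 40 members but the highest TMM-scaled CPM for 8, so livers are compared below in CPM. Its lows depended on the scaling too. It had the lowest TMM-scaled CPM for 13 members, but the lowest CPM from library totals for 3 and the lowest TPM for 2. Highs and lows in CPM of that liver and of AUG_WT replicate 2 below are those of TMM-scaled CPM.

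**Figure D1:**
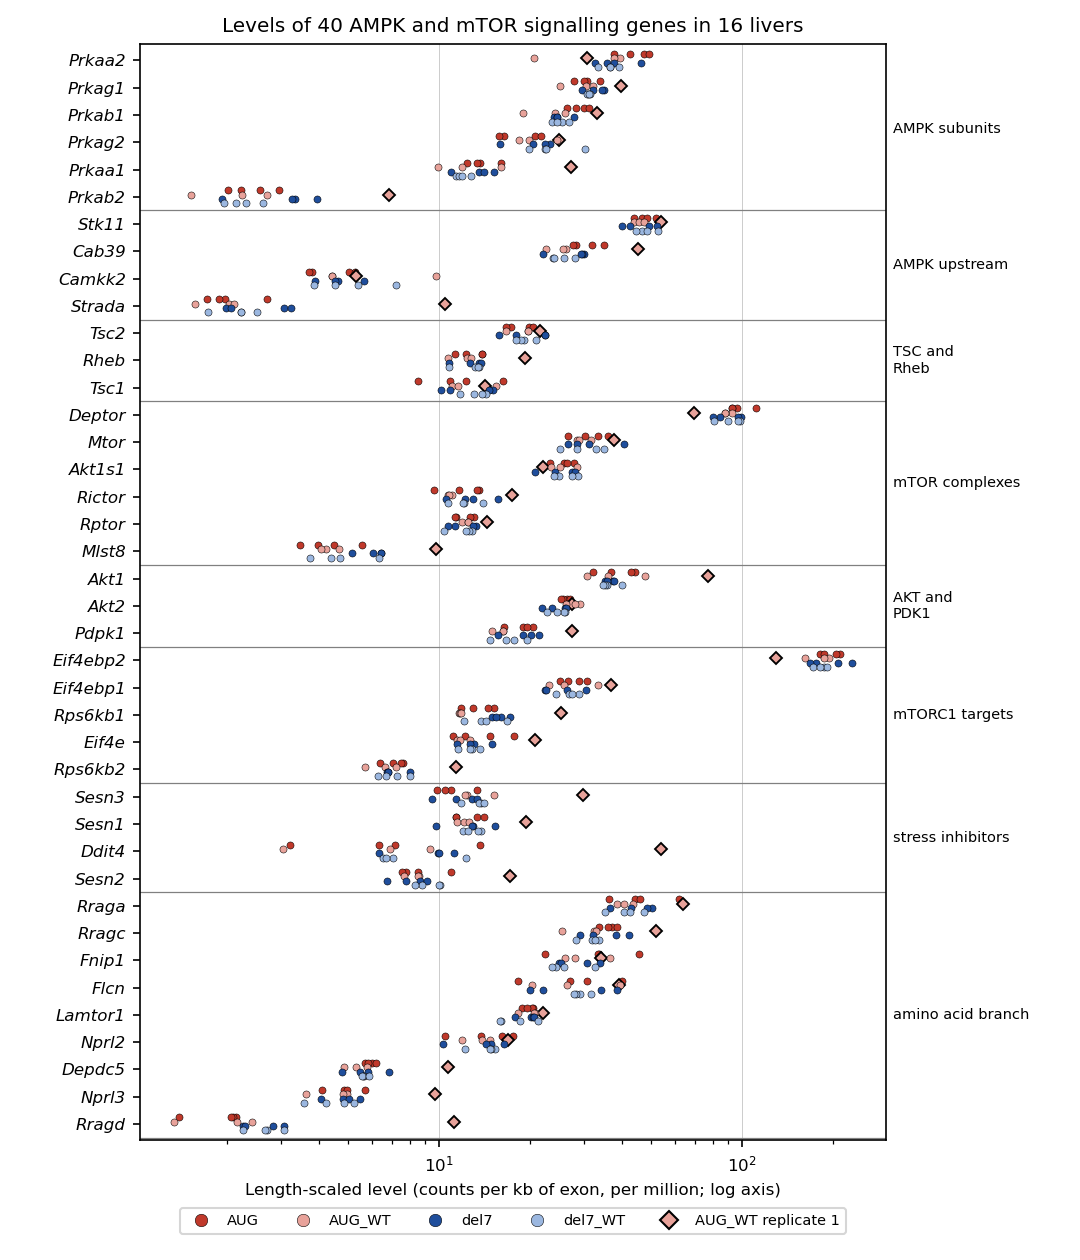
Length-scaled level (TPM, log axis) of 40 genes in each of 16 livers, grouped by role, with points coloured by group and AUG_WT replicate 1 as a diamond. Eif4ebp2 and Deptor lie to the right, Strada, Prkab2 and Rragd to the left, and the diamond lies to the right of the other points for 27 genes.

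In AUG livers no transcript of the AMPK and mTOR pathways passed the test, and Sesn3, Prkaa2, Prkab1 and Rragd had the smallest p-values. Relative to AUG_WT, 0 of 40 members passed an adjusted p of 0.05 in edgeR's quasi-likelihood test with Benjamini-Hochberg adjustment, which gives every fold change, interval and p below, where 4 of 14421 genes tested passed (0.0277%). DESeq2 and limma voom also called 0 members. At an unadjusted p under 0.05 there were 4 of 40 members in edgeR, against 8.81% of all genes, so the members' share was near that of all genes. Of these, Prkaa2 and Prkab1 were higher and Sesn3 and Rragd lower. DESeq2 gave 4 such members and limma voom 3. Fold changes lay above 0 for 15 members and below 0 for 25, against 43.8% of all genes above and 56.2% below 0, and their median was -0.04 on the log2 scale, against -0.04 for all genes. For 36 of 40 members the 95% interval of the fold change stayed within 2-fold either way. No member had AUG and AUG_WT values that did not overlap, against 2.05% of all genes. Without AUG_WT replicate 1, 0 members passed (0.0274% of 14582 genes did), 3 had an unadjusted p under 0.05 (5.92% of genes) and 4 had groups that did not overlap (5.53% of genes). The sign of the AUG fold change turned without it for 9 of 40 members (Prkab2, Stk11, Mtor, Akt1s1, Rps6kb1, Eif4ebp2, Ddit4, Depdc5 and Nprl2), and the medians were -0.02 for members and 0.01 for all genes. Erythroid markers summed to 120.3 to 470.0 CPM in AUG livers, against 119.3 CPM in AUG_WT replicate 1 and 538 to 2610 CPM in the other AUG_WT livers. Without that replicate 5 of 5 erythroid markers lay below 0 (median -2.31 on the log2 scale), while 7 of 7 Kupffer cell markers (median 0.41) and 3 of 3 neutrophil markers (median 1.23) lay above 0. With that replicate 5 of 5 erythroid markers lay below 0 (median -1.95). Kupffer cell markers then split into 5 above and 2 below 0 (median 0.09), and 3 of 3 neutrophil markers lay below 0 (median -0.41). The part of these markers in the members' values was not tested.

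In del7 livers, too, no member passed the test. Relative to del7_WT, 0 of 40 members and 0 of 14421 genes passed (0%), also 0 members in DESeq2 and in limma voom. At an unadjusted p under 0.05 there were 0 members in edgeR, DESeq2 and limma voom, against 1.92% of all genes in edgeR. Fold changes lay above 0 for 18 members and below 0 for 22, against 50.1% of all genes above and 49.9% below 0, with a median of -0.04 against 0.00 for all genes. The 95% interval lay within 2-fold for 39 of 40 members. Values of 1 member, Sesn2, did not overlap between the groups, against 4.01% of all genes. Kupffer cell markers were above 0 for 7 of 7 genes in del7 livers, with summed levels of 279 to 478 CPM, against 170.4 to 281 CPM in del7_WT livers. Neutrophil markers were above 0 for 3 of 3 genes, with sums of 6.53 to 13.9 CPM in del7 livers, against 2.60 to 5.10 CPM in del7_WT livers, and 5 of 5 erythroid markers were above 0 (131 to 872 CPM, against 112 to 351 CPM). The part of these markers in the members' values was not tested. Without AUG_WT replicate 1, which enters this comparison through the shared estimate of spread, 0 members passed and Sesn2 alone had an unadjusted p under 0.05 (5.34% of genes) and groups apart (3.97% of genes). Of 40 members, 0 passed the test of the difference between the 2 mutants' effects (AUG minus AUG_WT, less del7 minus del7_WT), where 1 gene in all passed (0.00693%), and 0 had an unadjusted p under 0.05 (5.21% of genes). Without AUG_WT replicate 1 the difference gave 0 members at either level (0.0137% and 3.02% of genes). DESeq2 and limma voom each gave 1 member at an unadjusted p under 0.05 and 0 past the adjusted threshold.

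Between the wild types, AUG_WT over del7_WT, 0 members passed, where 5 genes passed (0.0347%), and 0 had an unadjusted p under 0.05 in edgeR, DESeq2 or limma voom (11.8% of genes in edgeR). Their groups overlapped for 40 of 40 members, against 3.53% of genes apart. Members' fold changes were above 0 for 25 and below 0 for 15, against 55.4% of all genes above and 44.6% below 0. This split was 32 and 8 with libraries scaled by their totals alone, under which the median of all genes moved by 0.08 on the log2 scale. For the test of the difference between the mutants' effects the split of 22 above and 18 below 0 (45.1% and 54.9% of all genes) became 10 and 30 under that scaling. Without AUG_WT replicate 1, 0 members passed (0.0686% of genes did), Akt2 and Lamtor1 had an unadjusted p under 0.05 (7.47% of genes), and Akt2 and Rptor had AUG_WT values above all del7_WT values (7.62% of genes apart). Wild types of different lines, their backgrounds and any batch cannot be told apart. Across all 4 groups, 0 members passed the joint test (0.118% of genes passed), and 1 member, Sesn3, had an unadjusted p under 0.05 (8.12% of genes). Leaving out AUG_WT replicate 1, 0 passed (0.35% of genes) and 2 had an unadjusted p under 0.05 (9.78% of genes). Of 4920 fits of a member in a comparison under 25 alternatives, 0 passed, and the smallest adjusted p was 0.131, for Prkaa1 in AUG_WT over del7_WT without AUG_WT replicate 4 (log2 fold change 0.43).

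**Figure D2:**
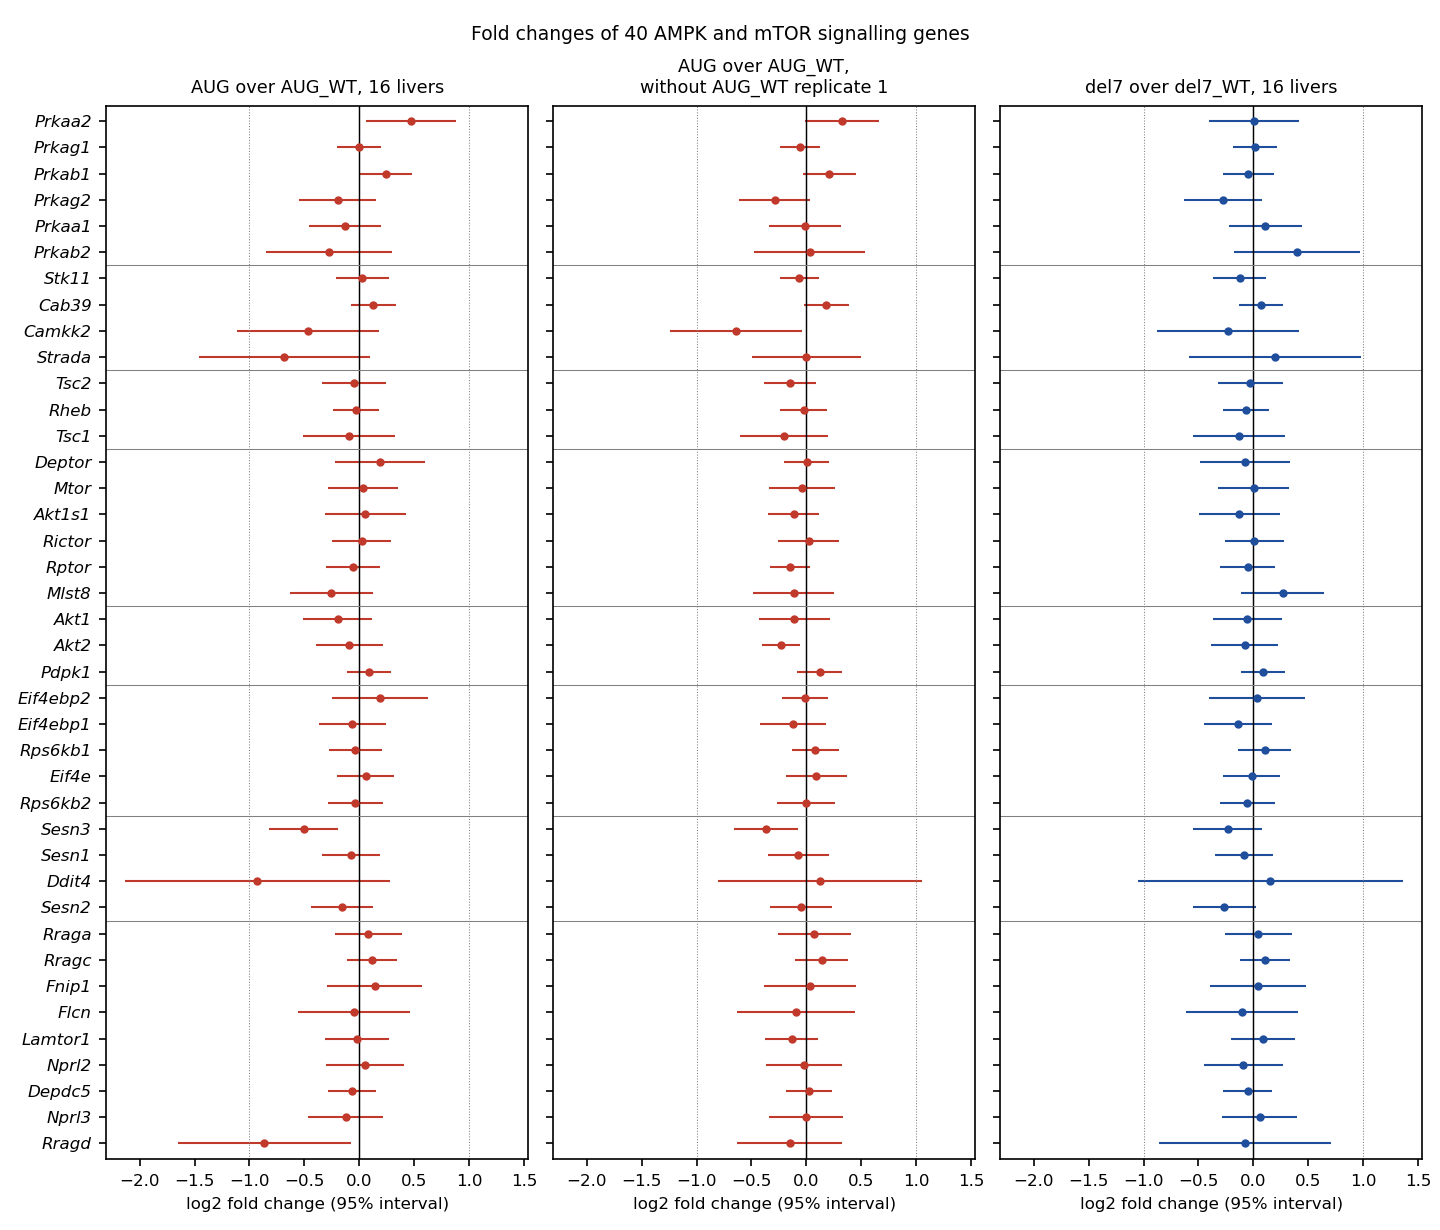
Log2 fold change with its 95% interval for each of 40 genes: AUG over AUG_WT in all 16 livers, AUG over AUG_WT without AUG_WT replicate 1, and del7 over del7_WT. Dotted lines mark 2-fold, and Ddit4, Rragd and Strada, whose intervals reach past it at left, move toward 0 in the middle panel, while Camkk2 moves away from it.

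AMPK transcripts in these livers were mainly those of alpha2 and beta1, with gamma1 and gamma2 closer together. The share of Prkaa2 (alpha2) in the summed TPM of Prkaa2 and Prkaa1 (alpha1) was 72.9% ± 7.41 (SD) over 16 livers. By liver it was 74.9%, 75.4%, 78.3% and 76.2% in AUG, against 53.03%, 56.1%, 76.9% and 79.2% in AUG_WT. In del7 it was 72.6%, 74.95%, 75.3% and 72.8%, against 74.3%, 76.3%, 77.02% and 73.7% in del7_WT. AUG_WT replicates 1 and 2 were the lowest of the 16, below every liver of the other groups, and AUG_WT replicate 4 was the highest. Prkab1 (beta1) made up 90.5% ± 3.11 (SD) of the beta transcripts, lowest at 82.9% in AUG_WT replicate 1. Prkag1 (gamma1) made up 60.1% ± 4.12 (SD) of gamma1 and gamma2, lowest at 50.5% in del7_WT replicate 1. This last order depends on the counting: the Prkag1 share was 50.5% with the length of the longest transcript and 39.1% with reads counted without strand, where Prkag1 had 12.6 TPM, against 31.6 TPM with strand. Prkag3, the muscle gamma3 subunit, had at most 0.26 CPM in any liver.

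Prkaa2 encodes the catalytic alpha2 subunit and had 134, 111, 136 and 125 CPM in AUG livers, against 58.3, 69.5, 121 and 117 CPM in AUG_WT livers. In del7 livers it had 102, 99.2, 127 and 101 CPM, against 106, 109, 114 and 99.6 CPM in del7_WT livers. AUG_WT replicates 1 and 2 were the lowest of all 16, and the groups of each pair overlapped. The log2 fold change was 0.47 (95% interval 0.07 to 0.88, adjusted p = 0.561) for AUG over AUG_WT and 0.01 (95% interval -0.40 to 0.41, adjusted p = 1) for del7 over del7_WT. Leaving out AUG_WT replicate 1, the AUG value was 0.33 (95% interval -0.01 to 0.67, adjusted p = 0.834) and the del7 value -0.004. Prkaa1, the other catalytic subunit, had 26.3, 21.3, 22.1 and 22.8 CPM in AUG and 30.2, 31.8, 21.1 and 17.96 CPM in AUG_WT livers, where replicates 1 and 2 were high. It had 22.6, 19.4, 24.3 and 22.02 CPM in del7 and 21.4, 19.8, 19.9 and 20.8 CPM in del7_WT livers, and the groups overlapped. Its smallest p was between the wild types, with a log2 fold change of 0.31 (95% interval -0.03 to 0.64, adjusted p = 0.466) for AUG_WT over del7_WT, and 0.19 without AUG_WT replicate 1 and 0.16 without AUG_WT replicate 2. Between AUG and AUG_WT the log2 ratio of Prkaa2 to Prkaa1 differed by 0.63 (1.68 ± 0.12 and 1.05 ± 0.91, SD, n = 4 each; exact permutation p = 0.4, two-sided, the smallest possible being 0.0286), and by 0.34 without AUG_WT replicate 1 (exact permutation p = 0.686).

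Prkab1 encodes the beta1 scaffold, which also binds glycogen. It had 28.6, 31.98, 31.97 and 34.96 CPM in AUG livers, against 24.2, 24.6, 30.5 and 28.7 CPM in AUG_WT livers. AUG_WT replicates 1 and 2 were again the lowest of these 8, and the groups overlapped, with a log2 fold change of 0.24 (95% interval 0.01 to 0.48, adjusted p = 0.561). Leaving out AUG_WT replicate 1 gave 0.21, with an interval that crossed 0 (-0.03 to 0.45, adjusted p = 0.834). In del7 livers Prkab1 had 26.2, 32.5, 25.8 and 25.3 CPM, with replicate 2 high, against 28.1, 30.7, 26.4 and 28.2 CPM in del7_WT livers. The test of the difference between the mutants' effects on Prkab1 gave a log2 value of 0.29 (95% interval -0.05 to 0.62, adjusted p = 0.864). Prkab2, the beta2 scaffold, was low throughout, at 4.62, 3.79, 5.23 and 4.15 CPM in AUG and 8.28, 4.84, 2.96 and 5.35 CPM in AUG_WT livers. It had 7.19, 3.71, 5.86 and 5.60 CPM in del7 livers, where 3 of 4 lay above every del7_WT liver, against 3.92, 3.72, 4.28 and 5.01 CPM in del7_WT livers. Prkab2's log2 fold change for del7 over del7_WT was 0.40 (95% interval -0.17 to 0.98, adjusted p = 1), and the difference between the mutants' effects was -0.68 (95% interval -1.49 to 0.13, adjusted p = 0.864), or -0.36 (95% interval -1.05 to 0.33, adjusted p = 1) without AUG_WT replicate 1.

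Prkag2, a gamma subunit that binds AMP and ATP, had 37.6, 37.7, 46.7 and 51.5 CPM in AUG livers and 38.1, 50.6, 60.5 and 49.8 CPM in AUG_WT livers. It had 36.8, 50.3, 51.7 and 48.7 CPM in del7 livers, against 71.03, 54.1, 53.2 and 48.3 CPM in del7_WT livers, where replicate 1 was the highest of 16. Prkag2's log2 fold change for del7 over del7_WT was -0.28 (95% interval -0.63 to 0.08, adjusted p = 1), and the groups overlapped. Prkag1 had the smallest SD of log2 CPM of the 40 members, spanning 1.33-fold over 16 livers and 1.21-fold without AUG_WT replicate 1. It had 26.1, 22.4, 23.3 and 23.9 CPM in AUG and 20.5, 23.1, 25.4 and 27.2 CPM in AUG_WT livers, the lowest being AUG_WT replicate 1. It had 24.97, 24.5, 26.3 and 25.3 CPM in del7 and 24.3, 24.99, 25.1 and 25.4 CPM in del7_WT livers, overlapping throughout.

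**Figure D3:**
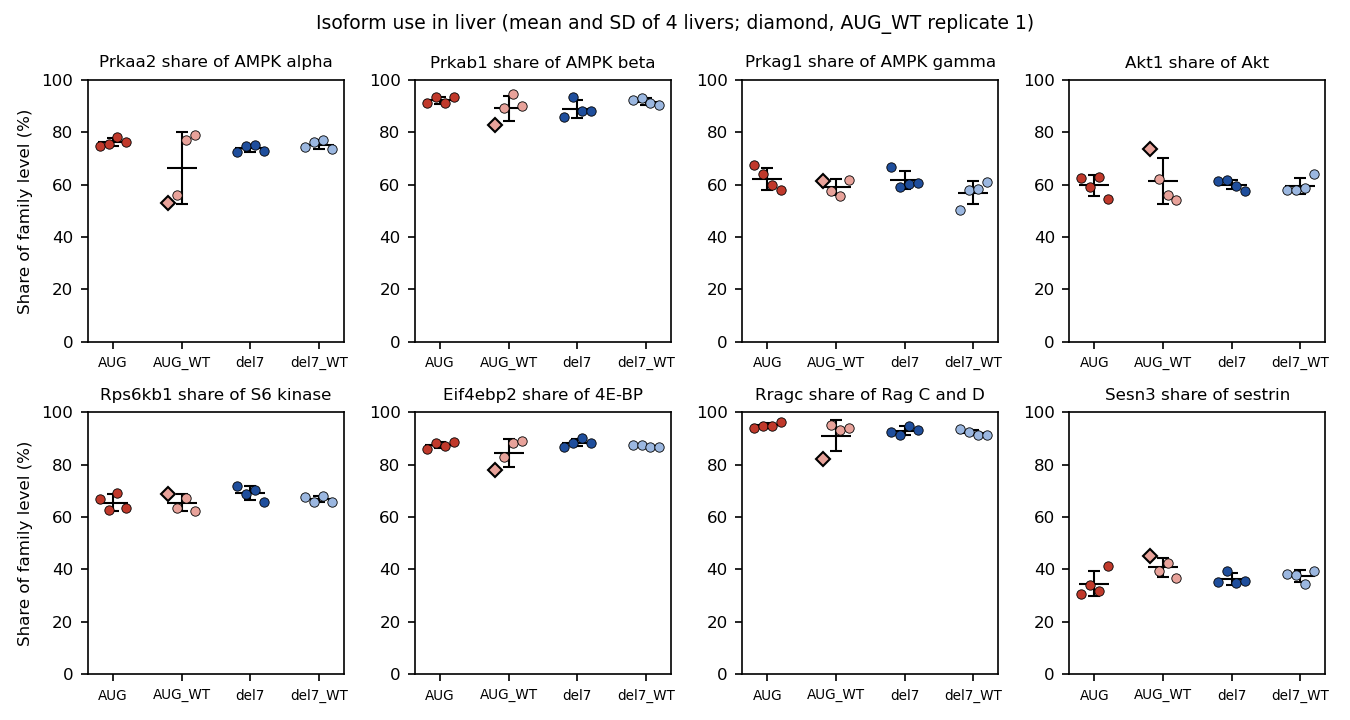
Share (%) of 1 isoform in the summed length-scaled level of its family in each liver, with the mean and SD of 4 livers per group and AUG_WT replicate 1 as a diamond. Alpha2, beta1, 4E-BP2 and RagC dominate their families in every group, and AUG_WT replicate 1 lies at the edge of its group for 7 of 8 families.

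Among the kinases upstream of AMPK, Stk11 (LKB1) spanned 1.49-fold over 16 livers, and 1.25-fold without AUG_WT replicate 1, its lowest at 58.6 CPM. Cab39 encodes MO25, which holds LKB1 in its active form, and had 79.9, 74.2, 86.3 and 71.5 CPM in AUG livers, against 76.3, 67.5, 70.8 and 70.5 CPM in AUG_WT livers. The groups overlapped through AUG_WT replicate 1, and without it every AUG value lay above every AUG_WT value, with a log2 fold change of 0.18 (95% interval -0.02 to 0.39, adjusted p = 0.834). In del7 livers Cab39 had 76.02, 59.3, 72.2 and 70.2 CPM, against 65.9, 62.8, 72.4 and 63.6 CPM in del7_WT livers, which overlapped. Strada encodes the pseudokinase that completes the LKB1 complex. It had 3.38, 5.58, 3.81 and 3.83 CPM in AUG livers, against 13.8, 3.70, 4.32 and 4.55 CPM in AUG_WT livers, where replicate 1 lay far above the other 15 livers. Its log2 fold change for AUG over AUG_WT was -0.68 (95% interval -1.46 to 0.10, adjusted p = 0.616), and 0.00 without AUG_WT replicate 1. The difference between the mutants' effects on Strada was -0.88 (95% interval -1.98 to 0.23, adjusted p = 0.869), and -0.18 without that liver. In del7 livers Strada had 3.95, 6.54, 3.94 and 6.10 CPM, against 4.48, 5.20, 3.504 and 4.65 CPM in del7_WT livers. Between the wild types the log2 value of Strada was 0.57 with AUG_WT replicate 1 and -0.12 without it.

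Camkk2, the calcium-dependent AMPK kinase, had 19.5, 15.4, 19.98 and 14.8 CPM in AUG livers and 13.8, 45.3, 18.5 and 18.8 CPM in AUG_WT livers, with AUG_WT replicate 2 far above the rest. Its log2 fold change for AUG over AUG_WT was -0.47 (95% interval -1.11 to 0.18, adjusted p = 0.67). With AUG_WT replicate 1 left out it was -0.64 (adjusted p = 0.825), and without AUG_WT replicate 2 it was 0.04 (adjusted p = 0.953). In del7 livers Camkk2 had 18.1, 18.8, 14.7 and 20.8 CPM, against 21.3, 18.4, 15.5 and 29.6 CPM in del7_WT livers, and the groups overlapped.

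**Figure D4:**
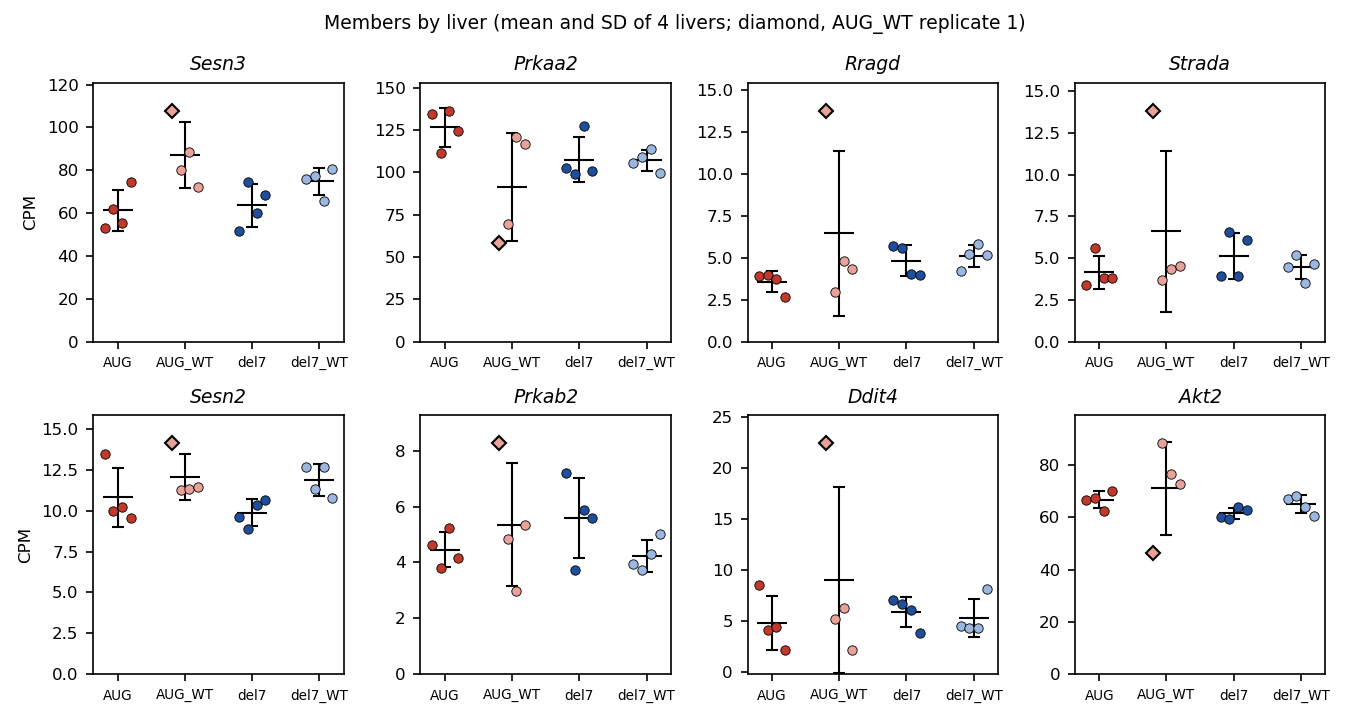
TMM-scaled CPM of 8 members in each liver, with the mean and SD of 4 livers per group and AUG_WT replicate 1 as a diamond. AUG_WT replicate 1 is the highest of 16 for Sesn3, Rragd, Strada, Sesn2, Prkab2 and Ddit4 and the lowest for Prkaa2 and Akt2.

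The TSC complex and Rheb, the GTPase that TSC2 switches off and that activates mTORC1, showed no member past the threshold. Tsc1, Tsc2 and Rheb had log2 fold changes between -0.10 and -0.03 for AUG over AUG_WT and between -0.13 and -0.03 for del7 over del7_WT. With AUG_WT replicate 1 left out, the AUG values were -0.21 for Tsc1, -0.15 for Tsc2 and -0.02 for Rheb. Rheb spanned 1.26-fold over the 16 livers, whereas Tsc1 spanned 1.97-fold and was lowest in AUG replicate 1 (35.8 CPM) and highest in AUG_WT replicate 4 (70.7 CPM).

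Of the mTOR complex genes, Mlst8 had the smallest p, in the test of the difference between the mutants' effects. Mlst8 encodes a subunit shared by both complexes and had 8.71, 5.68, 6.95 and 6.47 CPM in AUG livers, against 10.2, 7.96, 7.96 and 7.02 CPM in AUG_WT livers. In del7 livers it had 9.56, 8.72, 9.80 and 9.58 CPM, against 7.08, 7.81, 10.3 and 6.26 CPM in del7_WT livers. All 4 del7 values lay above 3 of the del7_WT values, and del7_WT replicate 3 lay above them all. The log2 fold change was -0.26 (95% interval -0.63 to 0.12, adjusted p = 0.685) for AUG over AUG_WT and 0.27 (95% interval -0.11 to 0.64, adjusted p = 1) for del7 over del7_WT. The AUG value of Mlst8 was -0.11 without AUG_WT replicate 1. The test of the difference between these effects gave -0.52 (95% interval -1.06 to 0.01, adjusted p = 0.864), and -0.38 without AUG_WT replicate 1.

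Rictor defines mTORC2 and Rptor (Raptor) defines mTORC1, and their TPM were alike at 12.4 ± 2.05 TPM and 12.2 ± 1.04 TPM. Rictor had 57.8, 72.7, 79.9 and 82.6 CPM in AUG and 69.9, 76.8, 71.2 and 71.04 CPM in AUG_WT livers, and Rptor had 54.1, 56.1, 61.2 and 62.3 CPM in AUG and 45.95, 67.9, 64.1 and 65.2 CPM in AUG_WT livers. AUG_WT replicate 1 was the lowest of 16 for Rptor in TMM-scaled CPM. Without it the AUG values of Rptor lay below the AUG_WT values, with a log2 fold change of -0.15 (95% interval -0.33 to 0.03, adjusted p = 0.841). In del7 livers Rictor had 63.7, 78.1, 75.2 and 89.2 CPM, against 74.2, 87.99, 74.1 and 68.1 CPM in del7_WT livers. Rptor had 54.1, 54.7, 61.6 and 58.9 CPM in del7 livers, against 62.3, 51.9, 61.7 and 61.9 CPM in del7_WT livers, and both genes overlapped between the groups. Mtor itself had log2 fold changes of 0.03 (95% interval -0.29 to 0.35, adjusted p = 0.962) for AUG over AUG_WT and 0.00 (95% interval -0.32 to 0.32, adjusted p = 1) for del7 over del7_WT, and the AUG value was -0.04 without AUG_WT replicate 1. Deptor had 146 CPM in AUG_WT replicate 1, against 267 to 349.5 CPM in the other 15 livers. Akt1s1, which encodes the mTORC1 inhibitor PRAS40, was likewise lowest there at 16.1 CPM, against 24.1 to 34.1 CPM in the other 15.

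Akt1 made up 60.2% ± 4.69 (SD) of the summed TPM of Akt1 and Akt2, the kinases that carry the insulin signal, with 73.8% in AUG_WT replicate 1 and 54.0% to 63.9% in the other 15. Akt1 had 64.4, 55.9, 61.5 and 48.4 CPM in AUG and 75.1, 83.2, 56.4 and 49.1 CPM in AUG_WT livers, and the AUG_WT values were the wider. It had 54.8, 54.97, 53.5 and 49.3 CPM in del7 and 52.96, 53.8, 52.1 and 61.8 CPM in del7_WT livers, which overlapped. Between the wild types the log2 fold change of Akt1 was 0.26 (95% interval -0.05 to 0.57, adjusted p = 0.523), with 0.17 without AUG_WT replicate 1 and 0.11 without AUG_WT replicate 2. Akt2, the isoform best known for insulin action in liver, had 66.6, 67.5, 62.5 and 70.3 CPM in AUG livers, against 46.4, 88.6, 76.8 and 72.7 CPM in AUG_WT livers. In del7 livers Akt2 had 60.3, 59.4, 63.9 and 62.7 CPM, against 67.3, 68.4, 63.9 and 60.6 CPM in del7_WT livers. AUG_WT replicate 1 was the lowest of 16 and AUG_WT replicates 2, 3 and 4 were the 3 highest. The log2 fold change of Akt2 for AUG over AUG_WT was -0.09 (95% interval -0.39 to 0.21, adjusted p = 0.869) in all livers. With AUG_WT replicate 1 left out it was -0.23 (95% interval -0.40 to -0.06, adjusted p = 0.791), and that for AUG_WT over del7_WT was 0.27 (95% interval 0.09 to 0.44, adjusted p = 0.363). Pdpk1, the kinase PDK1 that phosphorylates AKT, spanned 1.34-fold over 16 livers.

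Of the mTORC1 targets, Eif4ebp2 had 369.7, 397, 422 and 433 CPM in AUG livers, against 178, 395, 429 and 418 CPM in AUG_WT livers. It had 362, 367, 412 and 447 CPM in del7 livers, against 389.5, 369, 404 and 393 CPM in del7_WT livers. AUG_WT replicate 1 was less than 0.5 times the next lowest, and the other 15 spanned 1.23-fold. Its paralogue Eif4ebp1 (4E-BP1) had 22.6, 20.3, 23.4 and 21.5 CPM in AUG and 19.2, 31.3, 21.7 and 19.6 CPM in AUG_WT livers, with AUG_WT replicate 2 the highest of 16. It had 20.8, 18.7, 17.1 and 22.5 CPM in del7 and 21.2, 19.9, 23.2 and 22.6 CPM in del7_WT livers. Eif4ebp2 made up 86.9% ± 2.88 (SD) of the summed TPM of this pair. The log2 ratio of Eif4ebp1 to Eif4ebp2 was -2.93 ± 0.19 in del7 and -2.76 ± 0.05 in del7_WT livers (SD, n = 4 each; exact permutation p = 0.0857, two-sided), the smallest p of 24 such tests over 8 pairs of genes, for which every adjusted p was 0.726 or more.

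Rps6kb1 encodes S6 kinase 1, which phosphorylates ribosomal protein S6, and made up 66.7% ± 2.82 (SD) of the S6 kinase transcripts, or 73.6% with the length of the longest transcript. Rps6kb1 had 46.5, 37.9, 43.6 and 40.9 CPM in AUG and 51.7, 42.7, 38.9 and 39.8 CPM in AUG_WT livers. In del7 it had 53.2, 49.2, 47.8 and 44.8 CPM, against 52.4, 44.4, 45.04 and 39.4 CPM in del7_WT livers, and values overlapped in both pairs of groups. Its paralogue Rps6kb2 had 13.9, 13.5, 11.5 and 14.1 CPM in AUG and 13.96, 14.6, 11.3 and 14.5 CPM in AUG_WT livers. In del7 Rps6kb2 had 12.4, 13.3, 12.1 and 13.9 CPM, against 14.99, 13.9, 12.6 and 12.2 CPM in del7_WT livers. Eif4e, the cap-binding protein held by the 4E-BPs, had log2 fold changes of 0.06 (95% interval -0.20 to 0.32, adjusted p = 0.903) for AUG over AUG_WT, or 0.09 without AUG_WT replicate 1, and -0.02 (95% interval -0.27 to 0.24, adjusted p = 1) for del7 over del7_WT.

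The sestrins and Ddit4 restrain mTORC1 under stress: Sesn1 and Sesn2 bind leucine and hold back the GATOR2 complex, and Ddit4 (REDD1) acts through TSC. Sesn3 had the smallest p of the 40 members in AUG livers, with 53.3, 61.8, 55.6 and 74.7 CPM, against 108, 80.02, 88.4 and 72.2 CPM in AUG_WT livers. AUG replicate 4 overlapped the lowest AUG_WT liver, and the other 3 AUG livers lay below all AUG_WT livers. The log2 fold change of Sesn3 was -0.51 (95% interval -0.82 to -0.19, adjusted p = 0.561), and -0.37 (95% interval -0.66 to -0.07, adjusted p = 0.791) without AUG_WT replicate 1, whose 107.8 CPM was the highest of 16. In del7 livers Sesn3 had 51.7, 74.5, 60.1 and 68.7 CPM, against 76.0, 77.1, 65.8 and 80.6 CPM in del7_WT livers. The groups overlapped, with a log2 fold change of -0.23 (95% interval -0.55 to 0.08, adjusted p = 1). For AUG_WT over del7_WT the log2 value of Sesn3 was 0.22, and 0.08 without AUG_WT replicate 1. The joint test over the 4 groups gave Sesn3 the smallest p of the 40 members, with an adjusted p of 0.422 in edgeR.

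Sesn2 had 9.64, 8.88, 10.4 and 10.7 CPM in del7 livers, against 12.7, 11.3, 12.7 and 10.8 CPM in del7_WT livers. Every del7 value lay below every del7_WT value, though the nearest were 10.7 and 10.8 CPM, and the log2 fold change was -0.27 (95% interval -0.55 to 0.02, adjusted p = 1). In AUG livers Sesn2 had 13.5, 10.00, 10.3 and 9.58 CPM, against 14.2, 11.3, 11.4 and 11.5 CPM in AUG_WT livers, which overlapped. Sesn1 had 16.0, 19.6, 19.5 and 16.6 CPM in AUG and 18.2, 19.3, 18.4 and 19.4 CPM in AUG_WT livers. In del7 Sesn1 had 13.9, 19.6, 17.7 and 20.5 CPM, against 17.3, 20.4, 18.2 and 20.1 CPM in del7_WT livers, with all groups overlapping. Of the summed sestrin TPM, Sesn3 held 37.2%, Sesn1 37.1% and Sesn2 25.8% on average, so that Sesn1 and Sesn3 could not be ranked. With the length of the longest transcript Sesn3 held 49.0%.

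Ddit4 was the most variable member. It had 8.45, 4.10, 4.38 and 2.08 CPM in AUG livers, against 22.5, 5.12, 6.25 and 2.08 CPM in AUG_WT livers. In del7 livers it had 7.03, 6.62, 6.05 and 3.73 CPM, against 4.48, 4.27, 4.28 and 8.05 CPM in del7_WT livers. AUG_WT replicate 1 was the highest by far, and the other 15 livers still spanned 4.07-fold, with each group overlapping its wild types. Ddit4's log2 fold change was -0.93 (95% interval -2.13 to 0.28, adjusted p = 0.65) for AUG over AUG_WT, and 0.13 without AUG_WT replicate 1. For AUG_WT over del7_WT it was 0.77, and -0.28 without AUG_WT replicate 1.

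In the amino acid branch, transcripts of RagC, a partner of the RagA GTPase, outnumbered those of its paralogue RagD. Rragc made up 92.8% ± 3.18 (SD) of the summed TPM of Rragc and Rragd, with 82.2% in AUG_WT replicate 1 and 91.2% to 96.3% in the other 15 livers. Rragc had 40.01, 45.8, 44.9 and 44.1 CPM in AUG and 41.1, 36.03, 41.6 and 42.8 CPM in AUG_WT livers. In del7 Rragc had 45.9, 37.1, 48.6 and 36.3 CPM, against 38.7, 41.9, 39.98 and 35.5 CPM in del7_WT livers, and both pairs of groups overlapped. Rragd, the RagD gene, had 3.91, 4.00, 3.71 and 2.63 CPM in AUG livers, against 13.8, 2.94, 4.77 and 4.31 CPM in AUG_WT livers. AUG_WT replicate 1 was more than 2 times every other liver, and the log2 fold change was -0.87 (95% interval -1.66 to -0.08, adjusted p = 0.561), or -0.15 (adjusted p = 0.938) without it. In del7 livers Rragd had 5.69, 5.57, 4.04 and 3.98 CPM, against 4.203, 5.20, 5.84 and 5.19 CPM in del7_WT livers. Lamtor1, which anchors the Rag GTPases to the lysosome, was also lowest in AUG_WT replicate 1 (16.8 CPM). Without that liver the AUG values of Lamtor1 lay below the AUG_WT values, with a log2 fold change of -0.13 (95% interval -0.37 to 0.11, adjusted p = 0.905). Depdc5, Nprl2 and Nprl3, the GATOR1 subunits that switch off RagA, had log2 fold changes between -0.13 and 0.05 for AUG over AUG_WT and between -0.09 and 0.06 for del7 over del7_WT. Without AUG_WT replicate 1 the AUG values of Depdc5, Nprl2 and Nprl3 lay between -0.02 and 0.02. Rraga, the RagA gene, gave 0.08 (95% interval -0.22 to 0.38, adjusted p = 0.887) for AUG over AUG_WT.

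Some pairs of members varied together over the 16 livers by Pearson's r, though 0 of 780 pairs passed by Spearman's rho. These pairs were chosen after their values were seen. Flcn encodes folliculin and Fnip1 its partner, which together act on RagC and RagD at the lysosome. Over 16 livers Fnip1 was high where Ddit4 was low: AUG replicate 4 and AUG_WT replicate 4 had the most Fnip1 (118.7 and 101.5 CPM) and the least Ddit4 (2.08 CPM each), and AUG replicate 1 had the least Fnip1 (56.6 CPM) and the most Ddit4 (8.45 CPM) apart from AUG_WT replicate 1. Pearson's r on log2 CPM was -0.82 (permutation p = 0.0001, adjusted p = 0.0416 over 780 pairs of members) and Spearman's rho was -0.84 (permutation p = 0.0001, adjusted p = 0.078). Leaving out AUG_WT replicate 1 gave r = -0.86, without the 2 livers farthest in Ddit4 it was -0.80, and after centring on group means -0.86. Tsc1 and Flcn moved together, with r = 0.82 (permutation p = 0.00012, adjusted p = 0.0416) and rho = 0.78 (permutation p = 0.00065, adjusted p = 0.174). For Tsc1 and Flcn, r was 0.85 without AUG_WT replicate 1, and without the 2 livers farthest in Tsc1 0.78. Of 780 pairs, 16 had an adjusted p under 0.05 by r over 16 livers, 2 without AUG_WT replicate 1, which were these pairs, and 0 by rho. All values of a liver come from 1 library and share its depth and cell makeup, whose part in the correlations was not tested.

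**Figure D5:**
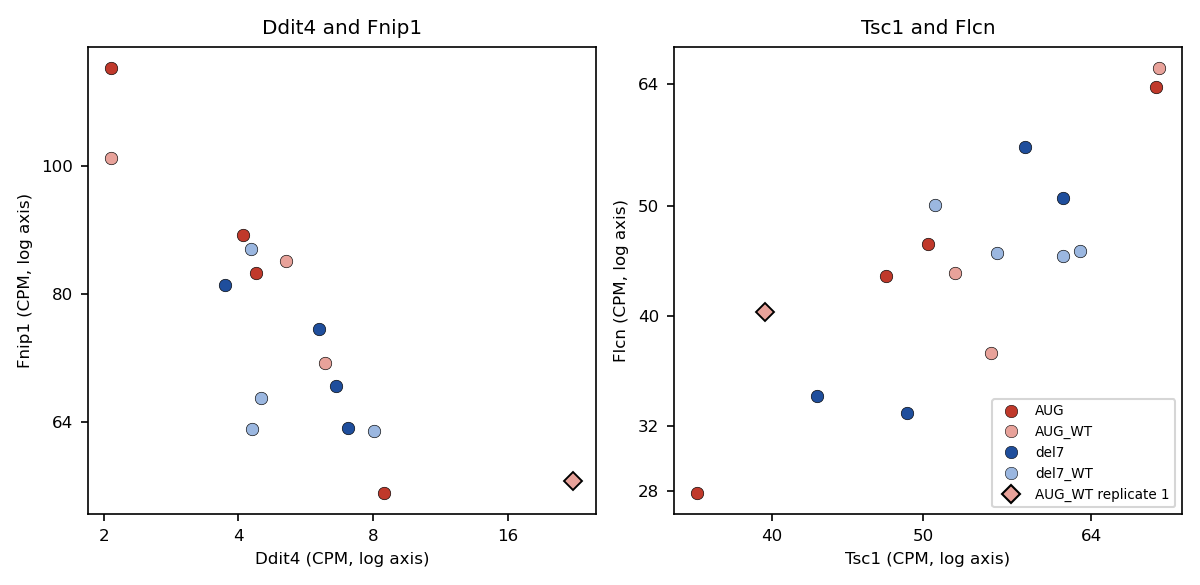
TMM-scaled CPM of Fnip1 against Ddit4 and of Flcn against Tsc1 in each of 16 livers (log axes), coloured by group with AUG_WT replicate 1 as a diamond. Outside the diamond, the liver with 118.7 CPM of Fnip1 has 2.08 CPM of Ddit4 and the liver with 56.6 CPM has 8.45 CPM, and the groups are mixed along both relations.

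Promoters are shown for Fnip1 and Ddit4, whose transcripts varied in opposite directions, and for Tsc1 and Flcn, whose transcripts varied together. The windows run from 250 bases before to 50 bases after a RefSeq start (GRCm38.p6). They are printed 5′ to 3′ on the gene's strand, with the E-box CACGTG in capitals. They lie at chr11:54437929-54438228 (Fnip1, + strand), chr10:59951721-59952020 (Ddit4, - strand), chr11:59809990-59810289 (Flcn, - strand) and chr2:28640983-28641282 (Tsc1, + strand).
Fnip1: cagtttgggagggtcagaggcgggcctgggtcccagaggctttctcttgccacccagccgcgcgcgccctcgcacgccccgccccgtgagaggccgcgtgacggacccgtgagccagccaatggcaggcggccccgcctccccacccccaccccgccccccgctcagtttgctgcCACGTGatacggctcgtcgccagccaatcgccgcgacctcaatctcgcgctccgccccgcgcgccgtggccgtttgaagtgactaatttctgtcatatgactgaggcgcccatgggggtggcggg
Ddit4: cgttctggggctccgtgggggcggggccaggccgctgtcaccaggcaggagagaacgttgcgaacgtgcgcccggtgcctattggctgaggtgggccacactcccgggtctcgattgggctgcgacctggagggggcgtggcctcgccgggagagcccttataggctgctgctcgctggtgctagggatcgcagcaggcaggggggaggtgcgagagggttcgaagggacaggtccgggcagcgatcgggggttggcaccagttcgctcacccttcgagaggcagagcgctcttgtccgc
Flcn: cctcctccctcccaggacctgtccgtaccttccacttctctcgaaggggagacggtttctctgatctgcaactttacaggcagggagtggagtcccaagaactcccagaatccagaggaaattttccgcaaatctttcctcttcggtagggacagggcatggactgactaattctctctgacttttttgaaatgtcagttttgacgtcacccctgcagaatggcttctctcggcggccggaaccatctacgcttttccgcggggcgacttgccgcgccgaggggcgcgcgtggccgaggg
Tsc1: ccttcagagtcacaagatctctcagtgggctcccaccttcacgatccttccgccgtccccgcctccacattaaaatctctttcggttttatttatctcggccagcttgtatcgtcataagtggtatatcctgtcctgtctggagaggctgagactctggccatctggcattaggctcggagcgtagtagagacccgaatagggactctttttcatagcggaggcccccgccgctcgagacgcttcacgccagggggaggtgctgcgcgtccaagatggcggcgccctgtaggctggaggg
CACGTG, the palindromic core bound by TFEB, TFE3, MYC and the clock proteins, was searched on both strands. It was found in the Fnip1 window, 75 bases before the start, and not in the other windows printed. RefSeq windows matched 37 of 40 members by symbol, with 46 windows in all, and 5 of these (10.9%) held CACGTG, against 7.15% of 32851 promoters: those of Eif4e, Fnip1, Lamtor1, Rheb and Rragc. TGATGCAA, a form of the ATF4 element, was in 0 of the 46, against 0.895% of all promoters. A match is a run of letters in the window, not a measured site.

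Genes around the members were read from 9 lists of pathway neighbours and outputs, and 0 genes in any list passed in any comparison. Of 13 genes for AMPK substrates, 3 lay above 0 and 10 below in AUG over AUG_WT, with a median log2 value of -0.09. The smallest p there belonged to Crtc2, a glucagon-responsive coactivator of glucose production (log2 fold change -0.32, adjusted p = 0.561), and Tbc1d4 (log2 fold change -0.58, adjusted p = 0.583). Of 20 genes tested for amino acid sensing, 14 lay above 0, with the amino acid transporter chain Slc3a2 at a log2 fold change of 0.33 (adjusted p = 0.561). Of 9 glucocorticoid-induced genes, 7 lay below 0, with a median of -0.37 and the metallothioneins Mt2 (log2 fold change -2.49, adjusted p = 0.561) and Mt1 (log2 fold change -1.63, adjusted p = 0.561) in front. Prr5, an mTORC2 partner, had a log2 fold change of -0.77 (adjusted p = 0.561), and its list of 18 split into 9 above and 9 below 0. The lists of mTORC1 effectors, ATF4 targets, p53 targets, FoxO1 targets and AMPK partners had medians of -0.04, 0.03, -0.23, -0.22 and 0.14, against -0.04 for all genes.

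Several of these AUG values moved when AUG_WT replicate 1 was left out, and 0 list genes passed then either. The medians of those 5 lists were -0.03, -0.13, 0.15, -0.48 and 0.10, against 0.01 for all genes, so that the signs for ATF4 targets and p53 targets turned. FoxO1 targets lay below 0 for 6 of 6 genes, and 3 of 6 with that liver, and p53 targets lay above 0 for 6 of 8, and 2 of 8 with it. The AMPK substrates then split into 5 above and 8 below 0 (median -0.02), amino acid sensing into 10 and 10, the Prr5 list into 12 and 6, and glucocorticoid-induced genes into 1 and 8 (median -0.26). Tbc1d4 had a log2 fold change of -0.02 and Prr5 one of -0.34 without that liver, while Crtc2 (-0.24), Slc3a2 (0.39), Mt2 (-2.21) and Mt1 (-1.47) moved less, with adjusted p of 0.791 or more for all 6.

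In del7 over del7_WT the same lists had medians between -0.05 and 0.13, against 0.00 for all genes. The smallest p belonged to Chac1, an ATF4 target that degrades glutathione (log2 fold change -1.33, adjusted p = 1). Among glucocorticoid-induced genes Fkbp5 gave a log2 fold change of -0.57 (adjusted p = 1) and Sgk1 a log2 fold change of 0.58 (adjusted p = 1), and 6 of 9 lay above 0. Castor1, the arginine sensor, gave a log2 fold change of -0.58 (adjusted p = 1), and the AMPK substrate Acaca, the rate-limiting enzyme of fatty acid synthesis, a log2 fold change of -0.09 (adjusted p = 1).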

How the data were processed

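RNA was taken from mouse liver for 16 libraries in 4 groups, with 10 mg of tissue extracted, 550 ng of RNA used after DNase treatment, ribosomal RNA removed and a directional kit, per the labels' protocols. The deposited count tables hold whole reads per gene, and the column used equals the reverse-strand counts in 16 of 16 libraries. Cutadapt 2.10, STAR 2.7.9a and the mouse build GRCm39 are named in the submitters' processing notes. Reads in no gene made up 21.8% to 35.0%, multimapping reads 9.23% to 15.0% and unmapped reads 2.82% to 3.93%, and these were left out of library sizes.

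Genes passing edgeR 4.0.16's filterByExpr with a minimum count of 10 (14421, all 40 members among them) were scaled by TMM and fitted with 1 mean per group over the 16 livers, which leaves 12 residual degrees of freedom. Quasi-likelihood p-values were adjusted by Benjamini-Hochberg over all genes tested, with a threshold of 0.05. Alternatives used DESeq2 1.42.0 and limma 3.58.1 under R 4.3.3, and the procedure was tested on simulated data. Lengths for TPM were exon unions of GENCODE M21 (GRCm38), matched by Ensembl ID for 52081 of 55357 genes, so length-scaled levels mix annotation releases. Values in every library are given for the 5 members with the smallest p in each comparison, both members of each isoform pair, Ddit4 and the sestrins, and for other lists up to 2 genes with the smallest p, of which 1 gene is not reported here. Members, lists and alternatives were chosen with earlier results of these data known.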

Additional observations from a re-analysis of the deposited data

Results flagged for a closer look

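In groups of 4 livers, the gap between the highest or lowest value and its nearest neighbour was divided by the range of the 4 values (Dixon's ratio). Values with a high ratio were flagged. Of 160 groups examined (40 genes in 4 groups), 15 held such a value, where chance gives about 8 if CPM follow a normal distribution, which was not tested. AUG_WT replicate 1 gave 5 of them: Strada at 13.8 CPM against 3.70 to 4.55 CPM in the other 3 livers, Rragd at 13.8 CPM against 2.94 to 4.77 CPM, Sesn2 at 14.2 CPM against 11.3 to 11.5 CPM, Eif4ebp2 at 178 CPM against 394.9 to 429 CPM, and Lamtor1 at 16.8 CPM against 24.9 to 25.6 CPM.

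In del7_WT replicate 2, Rptor was low at 51.9 CPM against 61.7 to 62.3 CPM, Nprl2 was low at 9.11 CPM against 10.9 to 11.1 CPM, and Fnip1 was high at 86.6 CPM against 63.1 to 66.7 CPM. Camkk2 stood at 45.3 CPM in AUG_WT replicate 2 against 13.8 to 18.8 CPM, and Eif4e at 27.3 CPM in AUG_WT replicate 4 against 29.1 to 29.5 CPM. Deptor reached 344 CPM in AUG replicate 3 against 300.5 to 304 CPM. In del7, Prkaa2 was 127 CPM in replicate 3 against 99.2 to 102 CPM, and Prkab1 was 32.5 CPM in replicate 2 against 25.3 to 26.2 CPM. In del7_WT, Ddit4 was 8.05 CPM in replicate 4 against 4.27 to 4.48 CPM, and Flcn was 50.1 CPM in replicate 3 against 45.2 to 45.6 CPM.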

How the results depend on the processing

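No member passed in any of 25 alternatives, of which scaling by library totals alone was chosen after seeing the data. Counts over all genes were 4 (AUG over AUG_WT), 0 (del7 over del7_WT), 1 (difference), 5 (AUG_WT over del7_WT) and 17 (any difference). AUG_WT over del7_WT gave 3 by library totals, 11 without a filter, 3 without strand, 13 with only those groups and 70 in DESeq2. Any difference gave 54 without a filter and 132 in DESeq2, which also gave 9 for AUG, 1 for del7 and 6 for the difference; limma voom gave 2 for the difference. With the replicate number as a block, the difference gave 2 and AUG_WT over del7_WT 1, and no member call changed. Deviations of same-numbered livers correlated from -0.157 to 0.351 between AUG and AUG_WT, from 0.0919 to 0.283 between del7 and del7_WT (3 of 4 del7 livers matched their own number best) and from -0.0701 to 0.057 between the wild types. Not every pair exceeded 0.1 and no label ties the numbers to an animal or batch, so the numbers were not treated as pairing.

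Leaving out 1 liver at a time, counts ranged from 3 to 5 (AUG), 0 to 0 (del7), 1 to 2 (difference), 1 to 10 (AUG_WT over del7_WT) and 6 to 51 (any). Over all 40 members, leaving out 1 liver turned the sign of the fold change at least once for 25 (AUG over AUG_WT), 15 (del7 over del7_WT), 23 (difference) and 25 (AUG_WT over del7_WT), of which 9, 3, 6 and 16 turned without AUG_WT replicate 1. Among the 5 members with the smallest p per comparison and the 8 isoform ratios, signs turned for: Strada (-0.115 to 0.749) and Ddit4 (-0.281 to 1.1) in AUG_WT over del7_WT, Rps6kb2/Rps6kb1 in AUG (-0.0747 to 0.0802), Akt1/Akt2 in AUG (-0.274 to 0.146), del7 (-0.0095 to 0.115) and AUG_WT over del7_WT (-0.128 to 0.292), Rragd/Rragc in AUG_WT over del7_WT (-0.405 to 0.267), and Rictor/Rptor in del7 (-0.0169 to 0.191) and AUG_WT over del7_WT (-0.203 to 0.0461). By other lengths or strand, the shares moved to 50.5% and 39.1% (Prkag1), 73.6% (Rps6kb1) and 49.0% (Sesn3). The cause was not tested where no construction shows it. With 4 livers a group, the printed 95% intervals give the precision of each fold change.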
